A study of Mus musculus with 2 samples.

Results

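The cells compared here were Cxcl12-high stromal cells and Cxcl12-silent cells among the Ctsk-lineage cells of the newborn mouse femur, each cell sitting in its own well of a sorted plate. Both plates came from C57/B6 mice of the genotype CTSK-cre+ mTMG, taken at postnatal day 6, with 1 animal on each plate (plate 47 for animal 1 and plate 48 for animal 2, littermates). Cre is driven by the cathepsin K promoter in these mice, which switches a cell and all its descendants to membrane GFP. GFP-positive cells were sorted, so cells without a history of Ctsk promoter activity were outside the study and the animals carry no further treatment. Cathepsin K is best known from osteoclasts, and the sorted cells were labelled as mesenchymal. Members were chosen by transcript level in CPM, the count of a gene scaled to a common total per well. Of 658 wells, 653 had at least 500 detected genes and at most 20% mitochondrial counts, and 473 of those had less than 4000 CPM of the cartilage genes Ucma, Matn3, Col9a1 and Lect1 in sum. Of these, 43 wells had at least 500 CPM of Cxcl12 and are called high (25 on plate 47, 18 on plate 48). A further 371 wells had less than 20 CPM and are called silent (181 and 190), which gives 414 wells in the comparison. The remaining 59 wells lay between and only helped to estimate the spread.

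Cxcl12 encodes a secreted chemokine, also called SDF-1, that acts through the receptor Cxcr4 on blood-forming and immune cells. It is bound and internalised by the scavenging receptor Ackr3, and is cut by the peptidase Dpp4 and by metalloproteinases. In marrow, reticular stromal cells that express Cxcl12 together with stem cell factor (Kitl), the leptin receptor (Lepr) and the transcription factors Ebf3 and Foxc1 are known as a niche for blood stem cells, and they also carry early adipocyte genes. Pericytes, smooth muscle cells and connective tissue fibroblasts make Cxcl12 as well, so its transcript alone does not name a cell type.

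Because the wells were chosen by 1 gene, the 250 bases before its start are shown, as RefSeq gives them on GRCm38.p6 (chr6:117168285-117168534, plus strand), directly before the gene at chr6:117168535-117181367 in GENCODE vM21. No letters are capitalised because none of the motifs searched was found.
Cxcl12: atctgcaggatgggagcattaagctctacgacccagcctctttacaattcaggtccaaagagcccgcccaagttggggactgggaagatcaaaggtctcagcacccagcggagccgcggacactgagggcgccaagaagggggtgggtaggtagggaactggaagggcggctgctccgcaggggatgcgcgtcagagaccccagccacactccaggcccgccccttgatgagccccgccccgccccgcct
The stretch is 64.4% G or C. The motifs were the palindromic EBF consensus, GTAAACA for forkhead factors and TATAAA for a TATA box, on both strands, and they occur in 0.779%, 3.17% and 12.4% of all 32851 promoter windows of this length. Their absence says only that these letters are not in this window.

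The counts were treated as reads, not molecules. Each animal filled its own plate, so animal and plate cannot be told apart. Median depth was 100603 and 130519 counts in high wells of plates 47 and 48, and 99437 and 99957 in silent wells. High wells had a median of 2321 and 2475 detected genes against 2127 and 2019 in silent wells, and 3.04% and 2.60% mitochondrial counts against 3.71% and 3.74%. The wells carry 95 distinct barcodes, all of which occur on both plates, and no pair of wells had identical counts. Defining markers of other cells were at 0 in all 43 high wells for blood (Ptprc) and endothelium (Cdh5, Pecam1), and the macrophage gene Csf1r reached 13.3 CPM at most. The 10 macrophage markers summed to 45.0 and 28.2 CPM in high wells and 25.3 and 13.9 CPM in silent wells, with 4 of 10 at 0 in high wells and up to 674 CPM in 1 well of neither gate. The 9 endothelial markers summed to 150 and 159 CPM in high wells and 21.2 and 28.1 CPM in silent wells, with 4 of 9 genes at 0 in high wells. The 9 osteoclast markers summed to 110 and 578 CPM against 80.3 and 97.8 CPM; the plate 48 value held Mmp9, which reached 3334 CPM in 1 well. The part of these cells in the results was not tested beyond those values.

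High wells made up 10.5% of the non-cartilage wells of plate 47 (95% exact Clopper-Pearson interval 6.88% to 15.1%) and 7.69% of those of plate 48 (4.62% to 11.9%), and they lay in all 8 plate quadrants at shares of 6.12% to 15.5%. These intervals cover counting of wells only, and wells of 1 animal are not replicates of a condition. The level that chose the wells is given as a description. In high wells Cxcl12 ran from 527 CPM over a median of 1049 to 10414 CPM on plate 47, and from 502 over 852 to 10654 CPM on plate 48. One well held 33.8% of all Cxcl12 counts of the high wells on plate 47, and another 33.5% on plate 48. Among silent wells 165 of 181 and 172 of 190 had no Cxcl12 count at all, and the largest count was 2. The thresholds cut a continuous range: the wells nearest to the upper one had 502.1 CPM inside and 497.6 CPM outside, with 5 wells from 450 to 500 CPM and 4 from 500 to 550 CPM, and the nearest to the lower one had 18.8 CPM inside and 21.7 CPM outside. Of 180 cartilage wells 0 reached 500 CPM.

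**Figure D1:**
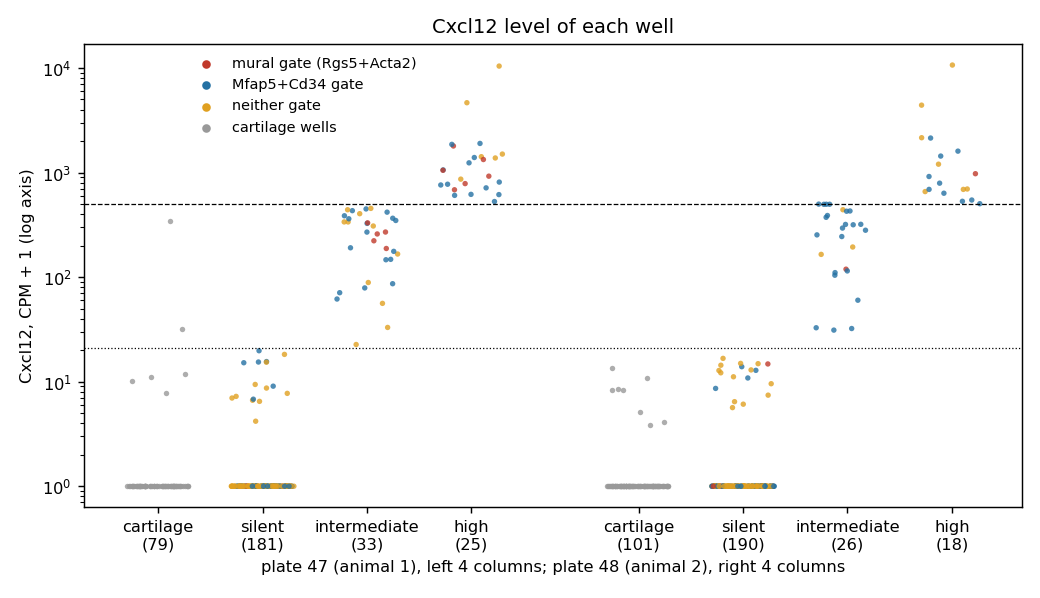
Cxcl12 in each of the 653 wells (CPM + 1, log axis) by plate and group, coloured by gate; the dashed line marks 500 CPM and the dotted line 20 CPM, and the numbers under the columns count wells. Wells of neither gate reach 10414 and 10654 CPM on the 2 plates, most silent wells sit at 0 (drawn at 1), and no cartilage well reaches the dashed line.

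The high wells fell into both gates and outside them. A mural gate (Rgs5 plus Acta2 at 2000 CPM or more, genes of pericytes and smooth muscle) held 6 of 25 high wells on plate 47 (24%, 9.36% to 45.1%) and 1 of 18 on plate 48 (5.56%, 0.141% to 27.3%). A fibroblast gate (Mfap5 plus Cd34 at 300 CPM or more, a microfibril protein and a surface sialomucin of loose connective tissue) held 13 of 25 (52%) and 10 of 18 (55.6%). The other 6 and 7 high wells were in neither gate, and 0 high wells were in both. Among silent wells the mural gate held 3 of 181 (1.66%) and 7 of 190 (3.68%), and the fibroblast gate 50 (27.6%) and 51 (26.8%), with 3 wells in both gates counted as mural. The largest Cxcl12 levels lay in the wells of neither gate, with a median of 1416 CPM against 771 CPM in the fibroblast gate and 973 CPM in the mural gate.

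Compared with silent wells, high wells had higher summed levels of single genes of the marrow niche (Vcam1, Kitl, Ebf3), of lipid uptake (Lpl), of mural cells and fibroblasts (Acta2, Cd34) and of secreted proteins (Rarres2, Serping1), and lower levels of Col1a1, Comp and Col2a1. In most of the lists that these genes belong to, most members passed neither edgeR nor DESeq2 after adjustment. The comparison asked what else a Ctsk-lineage cell with much Cxcl12 expresses. Counts were summed per animal and group, and edgeR's quasi-likelihood test on 6 sums, with 2 residual degrees of freedom, called 0 of 12181 genes at an adjusted p under 0.05 (smallest 0.161). At an unadjusted p under 0.05 it had 806 genes (6.62%), with 205 higher (1.68%) and 601 lower (4.93%). DESeq2 on the same sums called 293 genes (2.41%), with 102 higher (0.837%) and 191 lower (1.57%). limma on well means of log2(CPM + 10) called 5 genes (0.041%), each also called by DESeq2: Tmsb4x, Ifitm3 and Rarres2 higher (0.0246%), Col1a1 and Gm42418 lower (0.0164%). The calls named below for this comparison are therefore those of DESeq2, and none of them passed edgeR after adjustment. In 19.3% of all genes both high sums lay above both silent sums, and in 25% both lay below. The fitted log2 difference had a median of -0.34 over all genes, and a list's median is to be read against that value.

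Genes that receive or cut CXCL12 were mostly not higher beside the chemokine itself. Cxcr4 was near 0 in every group, at 0.369 and 0 CPM in high wells and 0.263 and 0.183 CPM in silent wells, and was too low to test. Ackr3 stood at 63.8 and 199 CPM in high wells and 150 and 153 CPM in silent wells. The values of the groups overlapped, and its log2 difference of -0.56 ± 0.51 (standard error, edgeR adjusted p = 0.876) turned positive without the high sum of animal 1. Dpp4 stood at 25.1 and 40.1 CPM against 14.2 and 9.1 CPM, with an edgeR adjusted p of 0.831. Of 6 tested genes of this list DESeq2 called 1, Mmp9, with 43.9 and 458 CPM in high wells and 7.58 and 1.92 CPM in silent wells; 48.1% of the Mmp9 counts of high wells were in 1 well.

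Among 22 tested niche cytokine and adhesion genes, DESeq2 called 3 higher and 1 lower (0.837% and 1.57% of all genes). In 11 both high sums lay above both silent sums and in 2 below (19.3% and 25% of all genes), and the median difference was 0.78. Vcam1, the adhesion receptor that holds blood cells to stroma, stood at 216 and 162 CPM in high wells and at 11.2 and 12.1 CPM in silent wells. Both high values lay far above both silent ones, at a log2 difference of 3.82 ± 0.50 (edgeR adjusted p = 0.414). A Vcam1 count was seen in 40% and 38.9% of high wells and in 4.97% and 6.32% of silent wells. The shares were 32% and 33.3% against 4.49% and 3.68% after each well was thinned to 20000 counts. In cartilage wells, at median depths of 102493 and 124891 counts, they were 6.33% and 4.95% unthinned and 3.80% and 4.95% thinned. The silent shares were thus near those of cartilage wells, but 4 of 101 silent fibroblast wells and 8 of 260 silent wells of neither gate had at least 100 CPM of Vcam1, up to 787 CPM. Kitl stood at 239 and 60.2 CPM against 19.3 and 2.97 CPM, and Igf1, a growth factor of bone and muscle, at 1106 and 1097 CPM against 333 and 362 CPM. The log2 difference of Kitl was 3.79 ± 0.56 and that of Igf1 was 1.45 ± 0.14. Tnfrsf11b, the decoy receptor that restrains osteoclasts, had 0 counts in high wells and 15.1 and 31.8 CPM in silent wells, which makes it at least 42.5-fold higher in the silent wells against a floor of 3 counts over the group.

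No other named niche factor was called by edgeR or DESeq2. Csf1, the macrophage and osteoclast growth factor, stood at 46.1 and 54 CPM against 11.5 and 19.1 CPM, with 52.5% of its high counts in 1 well. Angpt1 stood at 28.8 and 59.4 CPM against 18.4 and 3.89 CPM. Il34 stood at 16.2 and 0 CPM against 5.68 and 12.2 CPM, and Il7 was at 0 in both high sums and at or below 0.0457 CPM in silent wells. Angpt1 and Csf1 were higher in both animals but turned lower when the 6 wells with at least 2000 CPM of Cxcl12 were left out.

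Of 26 tested transcription factors and receptors of marrow stroma, DESeq2 called 4 higher (Ebf3, Lepr, Cebpb and Cebpd) and 1 lower (Klf2), against 0.837% and 1.57% of all genes. The median difference was 0.89. Ebf3, which keeps the niche cells in their state, stood at 139 and 98.7 CPM in high wells and 17.9 and 13.7 CPM in silent wells. Lepr stood at 112 and 39.3 CPM against 5.79 and 7.59 CPM, and 61.8% of its counts in high wells came from 1 well. Its log2 difference of 3.21 ± 0.88 was 1.57 without the 6 wells highest in Cxcl12 and 2.16 without the high sum of animal 1. Lepr had a count in 24% and 27.8% of high wells, 4.97% and 4.21% of silent wells and 0% of cartilage wells (20% and 16.7%, 2.81% and 1.05%, and 0% when thinned). Ebf1 stood at 158 and 90.3 CPM against 53.9 and 55 CPM without a call (DESeq2, edgeR adjusted p = 0.736). The CCAAT factors Cebpb and Cebpd, which start the adipocyte programme and respond to inflammation, stood at 61.2 and 172 CPM against 13.2 and 18.2 CPM, and at 247 and 426 CPM against 82.8 and 96.5 CPM. Foxc1 did not follow Ebf3, with 56.8 and 78.3 CPM against 42.6 and 71.9 CPM. Klf2 was the member called lower, at 101 and 133 CPM against 269 and 415 CPM.

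Lpl had the largest log2 difference among the higher genes that met the naming rule. Lpl, lipoprotein lipase, which releases fatty acids from circulating lipoproteins, stood at 944 and 432 CPM in high wells and 44.1 and 30.3 CPM in silent wells. The groups were far apart in both animals, at a log2 difference of 3.92 ± 0.26 (edgeR adjusted p = 0.171), and the top well held 16% of its counts. An Lpl count was seen in 60% and 33.3% of high wells against 14.4% and 8.95% of silent and 7.59% and 5.94% of cartilage wells, or 60% and 33.3%, 8.99% and 5.79%, and 1.27% and 0.990% when thinned. DESeq2 called 5 of 11 lipid genes higher and 0 lower (0.837% and 1.57% of all genes), the others being Adipoq, Pparg, Fabp4 and Cd36, and the list's median was 1.90. These 4 were carried by few wells, since 1 well held 73.6%, 60.6%, 44.3% and 52.8% of their counts in high wells. Adipoq, the fat cell hormone adiponectin, was listed at 0 in all silent wells and at 39.1 and 14.7 CPM in high wells.

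Of 15 tested chemokine genes DESeq2 called 3 higher (Rarres2, Ccl11 and Cxcl1) and 0 lower, against 0.837% and 1.57% of all genes. In 8 both high sums lay above both silent sums and in 3 below (19.3% and 25% of all genes). Rarres2, which encodes the chemoattractant chemerin, stood at 828 and 919 CPM against 237 and 206 CPM, a log2 difference of 1.77 ± 0.18 (adjusted p = 0.298 by edgeR and 0.0331 by limma). Ccl11, the eosinophil chemokine eotaxin, stood at 132 and 138 CPM against 12.1 and 6.4 CPM, and Cxcl1 at 366 and 287 CPM against 97 and 110 CPM. Of 9 complement genes DESeq2 called 2 higher and 0 lower (0.837% and 1.57% of all genes), and 7 had both high sums above both silent sums (19.3% of all genes). Serping1, the inhibitor of the first complement component, stood at 986 and 894 CPM against 233 and 203 CPM, and C4b at 60.5 and 41.3 CPM against 0.158 and 6.4 CPM. Ifitm3, an interferon-induced membrane protein, stood at 1842 and 2438 CPM against 716 and 754 CPM, a log2 difference of 1.32 ± 0.13 (limma adjusted p = 0.0190).

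Some mural and some fibroblast genes were higher in high wells. Of 22 mural genes DESeq2 called 5 higher (Acta2, Notch3, Myl9, Vtn and Itga7) and 0 lower, against 0.837% and 1.57% of all genes. Acta2, smooth muscle actin, stood at 1134 and 928 CPM against 151 and 205 CPM, and its log2 difference of 2.24 was 1.02 with mural wells left out of both groups. Rgs5 was high in animal 1 only, at 1132 and 101 CPM in high wells and 20.8 and 179 CPM in silent wells. Of 26 fibroblast genes DESeq2 called 8 higher and 1 lower, set against the same shares. Among them Cd34 stood at 413 and 385 CPM against 130 and 198 CPM, Ly6a, which encodes Sca-1, at 980 and 1378 CPM against 364 and 577 CPM, and the matrix protein Dpt at 643 and 393 CPM against 108 and 112 CPM. Within the fibroblast gate alone the log2 difference of Ly6a was 0.054. Mfap5, also a gate gene, differed little, at 1527 and 2017 CPM against 1058 and 1410 CPM (edgeR adjusted p = 0.826). Pi16, a marker of adventitial fibroblasts, went the other way: it had 0 counts in high wells and 20 and 29.9 CPM in silent wells, at least 44.7-fold more in the silent wells, with 18.8% of those counts in 1 well.

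The other genes that the naming rule picked among the DESeq2 calls, for size and spread over wells, fell into few groups. Col4a1 and Col5a3, collagens of basement membranes and of thin fibrils, stood at 830 and 310 CPM against 104 and 105 CPM, and at 156 and 130 CPM against 28 and 43.9 CPM. The detoxifying enzymes Gstm2, Mgst1 and Akr1b8 and the selenium carrier Sepp1 were also higher. Gstm2 stood at 173 and 223 CPM against 28.5 and 23.8 CPM, Mgst1 at 475 and 143 CPM against 40.6 and 39.8 CPM, Akr1b8 at 60.1 and 78.7 CPM against 6.79 and 12.4 CPM, and Sepp1 at 853 and 499.9 CPM against 185 and 131 CPM. Rasl11a, a small GTPase, stood at 256 and 535 CPM against 48.1 and 58.9 CPM. Within the fibroblast gate it went the other way, with both high sums below both silent sums. Its log2 difference there was -5.97 (edgeR adjusted p = 0.966). Igfbp4, which binds IGF1, was outside that rule and stood at 2053 and 2558 CPM against 691 and 671 CPM, a log2 difference of 1.53 ± 0.17, with Igf1 higher in the same wells. The calcium-dependent matrix gene Sparcl1 and Col4a2 were called higher too.

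Some matrix genes of bone stood lower in high wells, while the summed osteoblast list overlapped (2739 and 5718 CPM against 7202 and 4472 CPM). Col1a1, the main chain of bone collagen, stood at 2833 and 2043 CPM in high wells and at 11434 and 7203 CPM in silent wells, a log2 difference of -2.12 ± 0.16 (adjusted p = 0.234 by edgeR and 0.0204 by limma). Col1a2 stood at 4885 and 4179 CPM against 15202 and 10612 CPM, and Sparc, also called osteonectin, at 5048 and 5377 CPM against 11312 and 10133 CPM. Both high values lay below both silent values for each of these 3 genes. Of 18 fibrillar collagen and crosslinking genes DESeq2 called 1 higher (Col5a3) and 5 lower, against 0.837% and 1.57% of all genes. Of 20 osteoblast genes it called 0 higher and 6 lower, among them Ibsp (bone sialoprotein) with 1.11 and 79.1 CPM against 432 and 265 CPM and the osteoblast transcription factor Runx2 with 0 and 6.56 CPM against 73.9 and 45 CPM. Spp1 (osteopontin) overlapped between the groups, at 596 and 2121 CPM against 1494 and 984 CPM.

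Tendon and cartilage genes were lower too. Of 17 tendon genes DESeq2 called 0 higher and 5 lower (0.837% and 1.57% of all genes), and 13 had both high sums below both silent sums (25% of all genes). Scx, the tendon transcription factor, had 0 counts in high wells and 48.4 and 32.4 CPM in silent wells, at least 70.4-fold more. Comp stood at 22.9 and 3.47 CPM against 198 and 212 CPM, and Col11a1 at 46.8 and 102 CPM against 1254 and 1132 CPM. Of 16 cartilage genes outside the 4 that set the cartilage threshold DESeq2 called 0 higher and 10 lower, with a median of -4.62. Col2a1, the collagen of cartilage, stood at 64.2 and 91 CPM against 1669 and 2338 CPM, and the cartilage protein gene Chad at 20.3 and 6.94 CPM against 788 and 1009 CPM. The threshold left silent wells with cartilage transcripts below its limit. The 4 genes that set it had medians of 23.6 and 18.3 CPM in high wells and 31.3 and 36.9 CPM in silent wells. With the limit at 1000 CPM, non-cartilage wells fell from 239 and 234 to 211 and 180, while high wells stayed at 25 and 18. The wells between these limits were thus silent or intermediate in Cxcl12. Their part in these differences was not tested beyond the stricter limit given among the alternatives. Levels of Col2a1 and Chad under that limit are not given here. Genes of other kinds among those named by the rule were Tfrc, the transferrin receptor, at 0.369 and 0.771 CPM against 208 and 109 CPM, and Egfl6, Gipc1, Shisa2, Pdgfc, Crispld2, Col8a2, Smpd3, Cilp2, Scrg1 and 3110079O15Rik, which stood at 50.3 to 740 CPM on plate 47 in silent wells and at 15.1 CPM or less there in high wells.

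**Figure D2:**
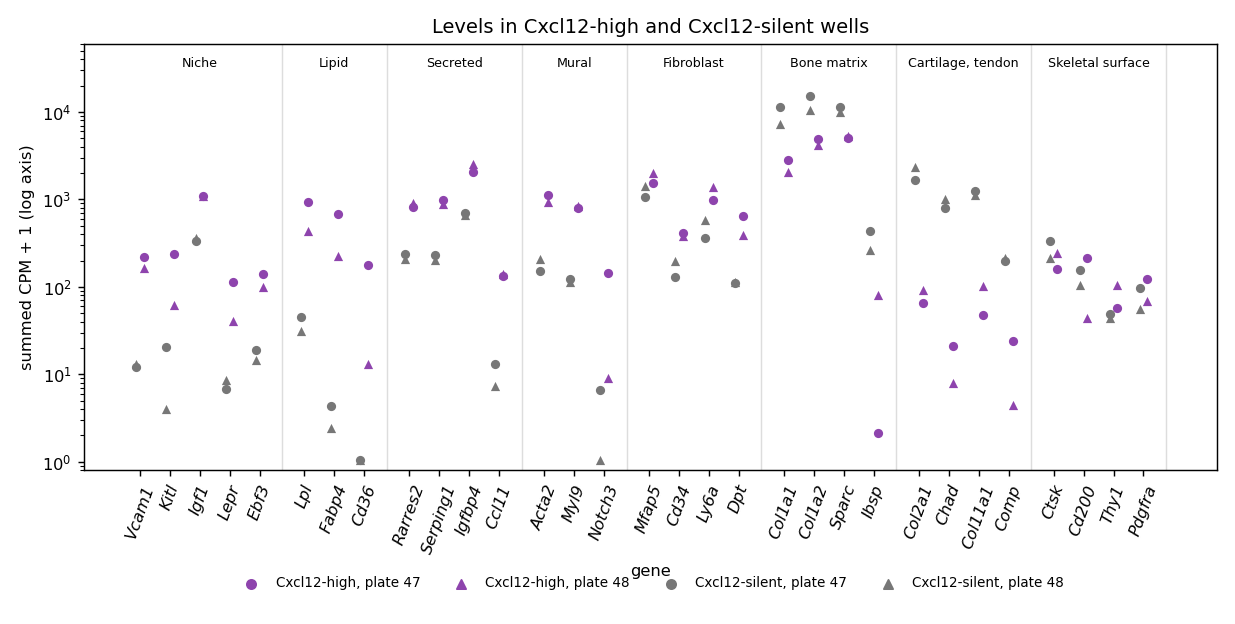
Summed CPM + 1 (log axis) of genes in Cxcl12-high wells (purple) and Cxcl12-silent wells (grey), circles for plate 47 and triangles for plate 48; each point is 1 sum over the wells of 1 animal and there are no error bars. Purple points lie above grey ones for Vcam1, Ebf3, Lpl and Serping1 and below them for Col1a1, Col2a1 and Comp, while Ctsk, Cd200 and Pdgfra overlap.

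Surface genes used to sort skeletal progenitors differed little or unevenly, and of the named ones only Ly6a was called by DESeq2. Ctsk, whose promoter drove the reporter, stood at 160 and 243 CPM in high wells and 337 and 211 CPM in silent wells, and Cd200 at 212 and 43.2 CPM against 154 and 105 CPM. Thy1 stood at 56.4 and 104 CPM against 48.5 and 43.4 CPM, Eng at 39.1 and 16.6 CPM against 7.52 and 10.4 CPM and Enpep at 27.7 and 11.6 CPM against 9.79 and 8.50 CPM. Pdgfra stood at 122 and 68.7 CPM against 96.8 and 55.2 CPM, and Pdgfrb at 214 and 71.7 CPM against 55.6 and 29.5 CPM. The values of Ctsk, Cd200 and Pdgfra overlapped between the groups, and those of the other 4 did not. Pdgfra and those 4 stood higher in high than in silent wells of both animals. The edgeR adjusted p of these 7 genes ran from 0.736 for Pdgfrb to 0.999 for Pdgfra. Of 15 tested genes of this kind DESeq2 called Ly6a higher and Cd9 lower, against 0.837% and 1.57% of all genes. Within the fibroblast gate Ly6a differed little, at a log2 difference of 0.054 (edgeR unadjusted p = 0.964). It reached 100 CPM in 11 of 23 high and 50 of 101 silent wells of that gate.

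The single high wells differed among themselves, and niche and bone genes were found together in some of those with the most Cxcl12. All 5 wells with the most Cxcl12 (2150 to 10654 CPM) were in neither gate. Each of the 5 had at least 100 CPM of Spp1 and of Igf1, 4 of 5 had that much of Hp (haptoglobin) and of the bone phosphatase Alpl, and 3 of 5 of Vcam1, of Lepr, of Ebf3 and of the osteoblast factor Sp7. Among the other 38 high wells 3 reached that level for Spp1, 1 for Hp, 1 for Alpl and 0 for Sp7. The niche genes were less particular to the 5 wells: Igf1 reached that level in 23 of the other 38, Vcam1 in 7, Ebf3 in 6 and Lepr in 3. One well of plate 47 held 10414 CPM of Cxcl12 with 4988 CPM of Igf1, 1944 CPM of Vcam1, 1643 CPM of Lepr, 1191 CPM of Ebf3, 969 CPM of Foxc1 and 3718 CPM of Lpl. The top well of plate 48, with 10654 CPM of Cxcl12, had 1030 CPM of Vcam1, 3432 CPM of Lpl and 232 CPM of Adipoq but no Lepr count. These 5 wells were picked by the gene that chose all members and are described without a test.

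Other wells of neither gate looked unlike those. In 4 of 13 wells there were 6237 to 17428 CPM of Prg4, the lubricin of joint surfaces, with 689 to 1499 CPM of Cxcl12 and no Lepr. Another had 18224 CPM of Tnmd, a tendon membrane protein, and 12805 CPM of Col1a1. In the 23 wells of the fibroblast gate Igfbp4 reached 100 CPM in 23, Igf1 in 18, Dpt in 15, Ly6a in 11 and Ccl11 in 7, and Ccl11 did so in no other high well. The 7 mural wells had no count of Igf1, Vcam1, Lepr or Pdgfra and at most 9.10 CPM of Igfbp4. Kitl, Lpl and Ebf1 each reached 100 CPM in 4 of these 7 wells. They did so in 4, 10 and 9 of 23 fibroblast wells and in 3, 6 and 7 of 13 wells of neither gate. Rgs5, a gate gene, reached 100 CPM in 7 mural wells and the smooth muscle myosin Myh11 in 5. In 1 mural well of plate 47, Rgs5 stood at 2031 CPM with no count of Acta2, Myh11, Myl9 or Notch3. That well held 8417 CPM of Col3a1 and 438 CPM of Dpt.

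**Figure D3:**
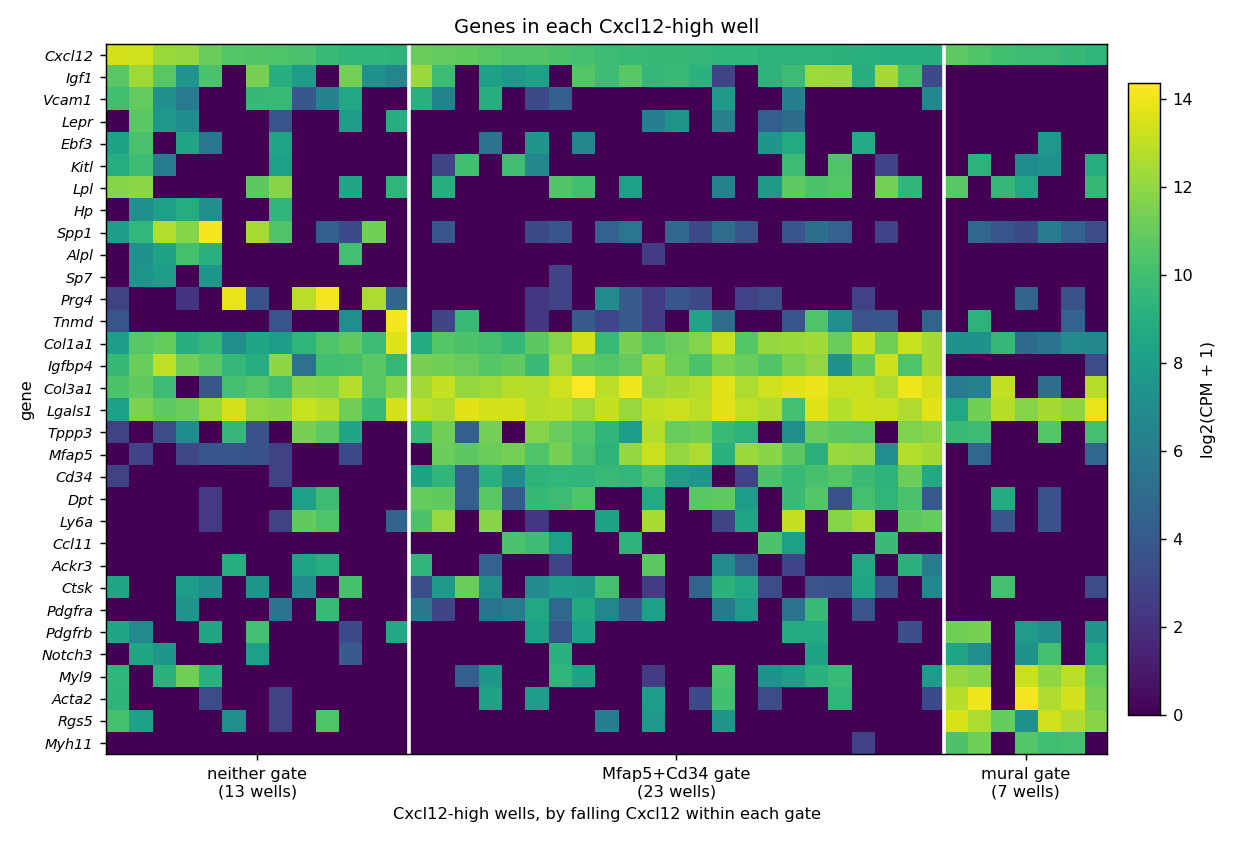
Level of each gene (rows) in each of the 43 Cxcl12-high wells (columns), as log2(CPM + 1) from 0 in dark violet to high in yellow, with wells ordered by falling Cxcl12 within the 13 wells of neither gate, the 23 of the Mfap5+Cd34 gate and the 7 of the mural gate. Spp1, Hp and Alpl gather in the leftmost wells, Prg4 in 4 wells of neither gate, and Igf1 and Igfbp4 are dark across the mural wells.

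Within wells of neither gate, summed Lpl and Ifitm3 were higher and bone and fibrillar collagen lower in high than in silent wells (13 against 260 wells). This comparison asked what remains once mural cells and Mfap5 Cd34 fibroblasts are taken out. It was made in a second edgeR fit of 11352 genes on 14 sums with 6 residual degrees of freedom, which called 20 genes (0.176%): 2 higher (0.0176%) and 18 lower (0.159%). Lpl rose, from 21.2 and 8.73 CPM in silent wells to 1859 and 619 CPM in high wells, at a log2 difference of 5.75 ± 0.91 (adjusted p = 0.0310). Its median over these 13 high wells was 0 CPM, and it reached 100 CPM in 6 of them and in 9 of 260 silent wells. Ifitm3 rose from 427 and 435 CPM to 1873 and 2529 CPM, at 1.79 ± 0.31 (adjusted p = 0.0445), and reached 100 CPM in 12 of 13 and 102 of 260 wells. Neither Lpl nor Ifitm3 met the naming rule here, which limits the share of counts in 1 well. Lower were Col1a1 (978 and 1241 CPM against 12975 and 8911 CPM, -3.78 ± 0.52), Col1a2, Col5a1, Col3a1, Col2a1, Sparc, Fkbp11, Lgals1, 3110079O15Rik, Gm42418, the mitochondrial ribosomal RNA mt-Rnr2 and 7 ribosomal protein genes. Col5a1, a collagen that starts thin fibrils, had 7.09 and 0.975 CPM against 459 and 294 CPM. Fkbp11, a folding enzyme of secretory cells, had 39.7 and 39 CPM against 618 and 548 CPM.

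Those calls depended on the scaling and on single sums. The median difference over all genes was -1.01 with TMM scaling and -0.35 with size factors, and with size factors edgeR called 5 genes: Lpl, Ifitm3 and Tmsb4x higher, Col1a1 and Sparc lower. The 7 ribosomal protein genes, mt-Rnr2 and Gm42418 had log2 differences of -1.41 to -0.76 with TMM scaling, around that median, and were not called with size factors. Leaving out 1 sum left 1 to 10 calls, with 1 left without the high sum of animal 1. Of the 20 calls 8 were shared by DESeq2, which called 172 (1.52%; 48 higher and 124 lower, 1.09%), and 3 by limma, which called 21 (0.185%; 17 higher, 0.15%, and 4 lower, 0.0352%).

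Of 21 tested niche genes in these wells DESeq2 called 1 higher (Vcam1) and 0 lower, 8 had both high sums above both silent sums (13.9% of all genes) and 3 below (37.2%), and the median difference was 0.061. Of 26 stromal factors and receptors it called 5 higher (Lepr, Ebf3, Ebf1, Cebpb and Cebpd) and 1 lower (Prrx2), against 0.423% of all genes called higher and 1.09% lower, and edgeR called 0 of either list. Vcam1 stood at 749 and 229 CPM in high wells and 8.38 and 13.7 CPM in silent wells, Ebf3 at 335 and 150 CPM against 8.31 and 6.03 CPM, and Lepr at 390 and 83.9 CPM against 6.46 and 0.385 CPM (edgeR adjusted p = 0.566 for each). Prrx2, a homeobox factor of limb mesenchyme, had 0 counts in these high wells and 58.7 and 25.3 CPM in silent wells. At 100 CPM or more, Vcam1 was found in 6 of 13 high and 8 of 260 silent wells, Lepr in 5 and 3, Hp in 5 and 1, and Adipoq in 2 and 0. Spp1, by contrast, was at 2244 and 5356 CPM in high and 2008 and 1373 CPM in silent wells of neither gate, and reached 100 CPM in 8 of 13 and 87 of 260 wells.

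Within the Mfap5 Cd34 fibroblasts no gene passed edgeR (13 and 10 high wells against 50 and 51 silent wells; 0 of 11352 genes, 449 or 3.96% at an unadjusted p under 0.05). limma called 0 and DESeq2 called 72 (0.634%), 4 higher (0.0352%) and 68 lower (0.599%). Lpl stood at 663 and 305 CPM in high and 112 and 97.9 CPM in silent fibroblasts, Serping1 at 1262 and 1420 CPM against 794 and 653 CPM, Igf1 at 1114 and 1290 CPM against 742 and 594 CPM and Igfbp4 at 2217 and 3529 CPM against 933 and 875 CPM. Each of these 4 had both high sums above both silent sums, which held for 12.5% of all genes. Of 9 complement genes 5 did so. Pi16, Pdgfc, Cytl1 and the cyclin Ccnb1 were the listed genes that DESeq2 called lower, and it called none of the niche, mural, lipid or collagen lists in either direction. Cytl1 was near the floor, at 68.9 CPM or less in silent and 0 in high wells of this gate. Ccnb1 did not have both high sums below both silent sums. The edgeR unadjusted p was 0.266 for Cytl1 and 0.108 for Ccnb1.

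The direct test of whether the high against silent difference itself differed between fibroblasts and wells of neither gate called 0 genes by edgeR (584, or 5.14%, at an unadjusted p under 0.05), 0 by limma and 107 by DESeq2 (0.943%). Without the neither-gate high sum of animal 2 edgeR called 5. So by edgeR with all sums and by limma, the calls in wells of neither gate are not shown to differ from the fibroblasts. Lpl was among the genes that DESeq2 called, at a log2 difference of -4.47 (DESeq2 adjusted p = 0.00317, edgeR adjusted p = 0.819). For Lpl the negative sign means a smaller rise in the fibroblasts. Rasl11a was called too, at -10.14 (DESeq2 adjusted p = 0.000518, edgeR adjusted p = 0.819). Its sums were lower in high than in silent fibroblasts.

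High fibroblasts and high wells of neither gate differed from each other in few genes by edgeR, 5 of 11352 (0.044%), with 4 higher in the fibroblasts (0.0352%) and 1 lower (0.00881%), or 2 higher and 1 lower with size factors. Spp1 was lower in the fibroblasts, at 15.4 and 4.15 CPM against 2244 and 5356 CPM, a log2 difference of -8.58 ± 0.85 (adjusted p = 0.00138), and 59.3% of its counts in wells of neither gate were in 1 well. Col3a1, the collagen of loose connective tissue, was higher in the fibroblasts at 11167 and 6981 CPM against 1568 and 1605 CPM, at 2.77 ± 0.31 (adjusted p = 0.00254). Tppp3, a tubulin-binding protein, stood at 1898 and 2064 CPM against 360 and 269 CPM and was also higher, as were Vim and the galectin gene Lgals1. DESeq2 called 497 genes here (4.38%; 245 higher, 2.16%, and 252 lower, 2.22%), among them Spp1, Tppp3 and Col3a1. limma called 37 (0.326%; 13 higher, 0.115%, and 24 lower, 0.211%), while leaving out 1 sum left edgeR with 1 to 9. Without the neither-gate high sum of animal 1 it had 1. The mural high wells, 6 on plate 47 and 1 on plate 48, were too few on plate 48 for a test.

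**Figure D4:**
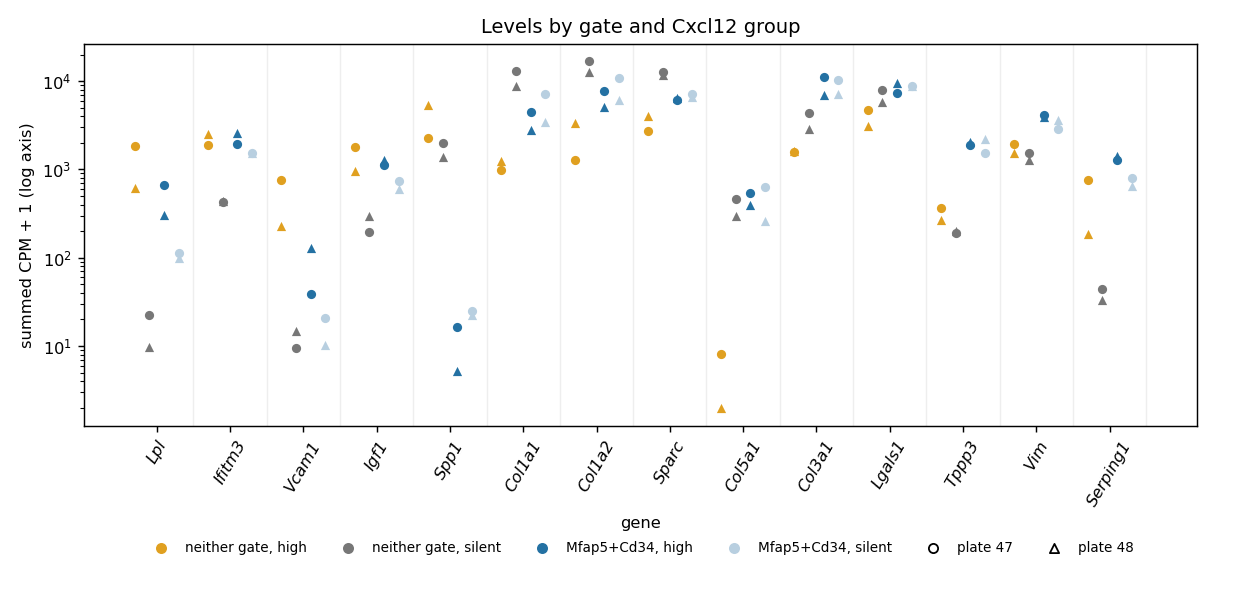
Summed CPM + 1 (log axis) of genes in high and silent wells of neither gate (yellow and grey) and of the Mfap5+Cd34 gate (dark and light blue), circles for plate 47 and triangles for plate 48; each point is 1 sum over the wells of 1 animal and there are no error bars. In wells of neither gate Lpl and Ifitm3 lie higher and Col1a1 and Col5a1 lower in high than in silent wells, and Spp1 separates both blue groups from the other 2.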

How the data were processed

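The deposited table holds whole-number counts per gene and well (24866 genes, 658 wells). The authors used CASAVA and build mm10 per the submitters' processing notes; for the aligner, the counter, the annotation and the handling of duplicates the answer is "not given in the sources used here", and no molecular identifiers were assumed. Cells were sorted 1 to a well, so no doublet caller was run. Members and gene lists were chosen with earlier results of these data known.

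CPM is the count over the well or sum total. Counts were summed per animal and group and tested with edgeR 4.0.16 (quasi-likelihood, TMM, filterByExpr, animal as a block, Benjamini-Hochberg threshold 0.05) under R 4.3.3. The animal is a block because both groups of wells come from the same animal. With 2 animals, p-values rest on 2 sums a group, which were separate litter mates. DESeq2 1.42.0 and limma 3.58.1 (added after seeing the data, on well means of log2(CPM + 10)) were alternatives, as were thresholds, filters, scaling, thinning to 20000 counts (3 silent wells left out) and left-out sums. Cxcl12 and the 4 cartilage genes were not tested, nor were the 4 gate genes in the fits by gate. A standard error is the log2 difference over the root of the test's F statistic.

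For the first comparison the genes named were the 12 largest changes in each direction past the threshold, at 50 CPM or more in the higher group on both plates and at most 25% of that group's counts in 1 well, and 6 for the others; up to 5 members of each list past the threshold were named too, with 26 fixed genes. As edgeR passed none in the first comparison, the same rule was applied there to the calls of DESeq2, after the data were seen. Within the fibroblasts and for the difference of both contrasts edgeR also passed none, and the rule named no gene. Single wells and further genes described by level were chosen after their values were seen. Of 497 genes in 33 lists, 480 were in the table. The edgeR and DESeq2 fits were tested on simulated counts, for the first comparison and for the wells of neither gate. The limma fit and the other steps were not tested in that way.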

Additional observations from a re-analysis of the deposited data

How the results depend on the processing

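The number of genes that edgeR called between high and silent wells, 0, became 6 with cartilage wells added as a group, 1 with no replicate block, 29 (4 higher, 25 lower) with wells of either gate left out and 9 (1 higher, 8 lower) with thinned wells. It was 5 with limma on well means and 293 with DESeq2, and stayed 0 under the other alternatives, each left-out sum included. The replicate block, with animal as the pair, changed no other count of calls by over 1.5 times. Within Mfap5 Cd34 fibroblasts the 0 became 72 with DESeq2. Within wells of neither gate the 20 became 172 with DESeq2 and 5 with size-factor scaling, and 1 to 10 with 1 sum left out. The difference of both contrasts, 0, became 107 with DESeq2 and lay between 0 and 5 with 1 sum left out. High fibroblasts against high wells of neither gate gave 497 with DESeq2, 3 with size-factor scaling, 37 with limma, 8 with no filter, 13 with thinned wells and 1 to 9 with 1 sum left out, against 5. The contrast of mural with other high wells was not run, since plate 48 had 1 such well and 3 were required. At a threshold of 1000 CPM the high wells were 5.44% and 2.99% of non-cartilage wells. The cause of these shifts was not tested.

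Of 56 log2 differences followed for named genes 41 kept their sign throughout and 15 did not in at least 1 alternative. All 15 were short of edgeR's threshold. With limma on well means the sign turned for Ackr3 (0.22), Il34 (0.029) and Cd200 (0.27). With high wells from 1000 CPM it turned for Dpp4 (-0.62), Pdgfra (-0.23), Thy1 (-1.47) and Mfap5 (-1.02), and from 250 CPM for Foxc1 (-0.22) and Enpep (-0.070). Without wells of at least 2000 CPM of Cxcl12 it turned for Csf1 (-1.41), Angpt1 (-5.73), Foxc1 (-1.49) and Eng (-0.99). Without wells of either gate it turned for Thy1 (-9.8), Enpep (-1.11), Mfap5 (-1.21) and Cd34 (-1.28). With a cartilage sum under 1000 CPM it turned for Pdgfra (-0.021) and Mfap5 (-0.034), with thinned wells for Pdgfra (-0.28) and Foxc1 (-0.34), and with no filter for Foxc1 (-0.025). With 1 sum or animal left out the difference ranged over 0 for Ackr3 (-1.45 to 0.38), Il34 (-9.99 to 1.37), Angpt1 (-0.21 to 4.82), Pdgfra (-0.24 to 0.41), Foxc1 (-0.62 to 0.90), Ctsk (-1.25 to 0.21), Cd200 (-1.37 to 0.46) and Rgs5 (-0.89 to 5.70).

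The 2 animals, with 25 and 18 high wells, limit what could be called: a gene carried by few wells can differ many-fold without passing edgeR, and absence of a call is not absence of a difference. If the counts are reads of amplified cDNA, they overstate the precision of single-well values.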

Other observations

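Of 17 contractile and cytoskeletal genes, which build and bind actin filaments, DESeq2 called 7 higher in the sums of high wells than in those of silent wells and 1 lower (0.837% and 1.57% of all genes). Cald1 stood at 456 and 588 CPM in high wells against 179 and 168 CPM in silent wells, and Tpm1 at 653 and 740 CPM against 334 and 228 CPM. In the fibroblast gate alone Tpm1 stood at 184 and 109 CPM in high and 172 and 146 CPM in silent wells. Tmsb4x, an actin-binding peptide, stood at 4346 and 4851 CPM against 2517 and 3090 CPM. In wells of neither gate DESeq2 called Tmsb4x higher. In the fibroblast gate both its high sums lay below both silent sums. Its log2 difference there was -0.68 (edgeR adjusted p = 0.966), against a median of -0.42 over all genes.

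Of 21 immediate-early and heat shock genes, which respond to tissue handling, DESeq2 called 0 higher and 1 lower (0.837% and 1.57% of all genes). The gene called lower was Hspa1a, at 124 and 49 CPM against 269 and 274 CPM. At an unadjusted edgeR p under 0.05, 6 of the 21 were lower and 0 higher (4.93% and 1.68% of all genes). In 8 both high sums lay below both silent sums and in 0 above (25% and 19.3% of all genes). The summed level of the 21 genes was 5144 and 8425 CPM in high wells and 7071 and 8902 CPM in silent wells. Of 18 cell cycle genes DESeq2 called 0 in either direction (edgeR 0, and 0 at an unadjusted p under 0.05). Their sum was 1273 and 236 CPM in high and 512 and 671 CPM in silent wells, with up to 9372 CPM in 1 high well. Within the fibroblast gate 11 of the 18 had both high sums below both silent sums and 1 above (25.2% and 12.5% of all genes). DESeq2 called 1 of them lower there, Ccnb1, and edgeR called 0.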
